A study of Mus musculus with 6 samples.

Results

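The IL-1 family members described here are *Il33*, *Il1a*, *Il1b*, *Il18*, *Il1rn*, *Il1rl1*, *Il1rap*, *Il1r1*, *Myd88* and *Irak1*, 10 of the 55487 genes in the count table. They were taken by gene symbol as ligands, receptors and adaptors of the family, and *Il1rl1* was picked because it was lower after knockdown of *Snhg18*, so its change is given as a description without a test (it was chosen by its CPM, the gene's reads scaled to a common library size, in this same contrast). Mouse pulmonary artery smooth muscle cells (mPASMCs), a purchased primary culture grown in serum, were transfected with either a control siRNA (si-NC) or one against the long noncoding RNA *Snhg18* (si-*Snhg18*), and mRNA was sequenced in 3 libraries per group. The comparison asks which genes change when *Snhg18* is reduced. Whether the libraries of a group came from separate cultures, the oxygen level and the time after transfection are not given in the sources used here, so p-values measure the spread between these libraries, which may be technical.

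Cytokines of the IL-1 family act through paired receptor chains. The cytokine binds a specific chain (IL1RL1, also called ST2, for IL-33, and IL1R1 for IL-1α and IL-1β), and this complex recruits the shared chain IL1RAP. The intracellular TIR domains then gather the adaptor MYD88 and kinases of the IRAK family, which activate NF-κB and MAP kinases. ST2 was first found as a serum- and Fos-inducible gene of fibroblasts and is best known from mast cells, group 2 innate lymphoid cells and regulatory T cells. Its gene also encodes a secreted form that binds IL-33 without signalling.

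*Il1rl1* (ENSMUSG00000026069) lies on the plus strand of chromosome 1 in GRCm38, from 40429570 to 40465415. GENCODE M21 annotates 5 transcripts, and the deposited count pools all of them. The exon length of 5302 bases in the table equals that of the full-length transcript of 11 exons, not of all exons together (6894 bases). The sequences at the end of exon 8 are shown because the membrane and secreted forms part there. The first 30 bases, in lower case, are shared. The capitals are the next bases of each coding sequence, which come from the following exon in the membrane form and from read-through of exon 8 in the soluble form, where they end with the stop codon after 29 bases. The membrane form was read from chr1:40446646-40446675 joined to the exon that starts at 40450075, and the soluble form from chr1:40446646-40446704.
Membrane form: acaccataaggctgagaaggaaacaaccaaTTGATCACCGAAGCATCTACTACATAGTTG
Soluble form: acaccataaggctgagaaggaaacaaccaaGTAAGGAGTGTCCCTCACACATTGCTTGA

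RefSeq lists 2 transcription starts for *Il1rl1*, and the 250 bases before each are shown because the counts do not tell which start was used. The motifs searched on both strands were GATAA (GATA factors), TGANTCA (AP-1) and an NF-κB motif (GGG and CC 5 bases apart), and capitals mark GATAA or its reverse complement. The distal window, chr1:40429320-40429569, held 2 matches, and the proximal window, chr1:40439379-40439628, held 1. At least 1 match to GATAA was present in 22.6% of the 32851 windows of the same length, to TGANTCA in 6.75% and to the NF-κB motif in 45.8%. TGANTCA and the NF-κB motif had no match in either *Il1rl1* window.
Distal start: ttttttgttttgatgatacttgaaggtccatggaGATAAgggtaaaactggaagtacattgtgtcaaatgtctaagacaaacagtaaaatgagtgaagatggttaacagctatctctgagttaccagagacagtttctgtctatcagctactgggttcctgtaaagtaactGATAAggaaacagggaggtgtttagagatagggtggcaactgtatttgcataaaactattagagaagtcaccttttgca
Proximal start: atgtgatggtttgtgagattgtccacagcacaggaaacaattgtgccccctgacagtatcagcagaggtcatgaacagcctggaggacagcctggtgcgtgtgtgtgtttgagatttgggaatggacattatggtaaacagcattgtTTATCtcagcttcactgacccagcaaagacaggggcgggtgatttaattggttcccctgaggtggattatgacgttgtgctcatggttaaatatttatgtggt

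The libraries held between 18097718 and 25988746 counted reads, and 3 reads, the limit that a count of 0 allows, equalled 0.115 to 0.166 CPM. The targeted *Snhg18* was at 23.5, 22.4 and 22.2 CPM in si-NC and fell to 10.6, 11.2 and 9.97 CPM in si-*Snhg18* libraries (log2 fold change -1.10, SE 0.10, edgeR adjusted p = 0.00727). All 6 smooth muscle markers on a hand-written list had reads in every library, and their summed level was 1725 to 1867 CPM in si-NC and 1189 to 1813 CPM in si-*Snhg18* libraries. Fibroblast markers were also abundant, led by *Col1a1* and *Pdgfra*, at 2264 to 2957 and 1375 to 2215 CPM in sum. Genes were tested by the quasi-likelihood method of edgeR, and one passed when its Benjamini-Hochberg adjusted p was under 0.05 over the 14531 genes with enough reads. Deviations from the group means correlated between same-numbered libraries, most for those numbered 2 (r = 0.742 against 0.41 and 0.359). However, si-*Snhg18* 1 correlated more with si-NC 3 (0.497) than with si-NC 1. A fit that blocks on the library number is given beside the plain fit where it changes the call. Of the tested genes, 7.36% passed in the plain fit and 27.2% with the block.

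*Il33* (ENSMUSG00000024810, chromosome 19, 29925114 to 29960718), the ligand of ST2 and a nuclear alarmin released by damaged cells, was at 5.96, 9.88 and 4.92 CPM in si-NC libraries 1 to 3 and at 1.39, 6.46 and 1.53 CPM in si-*Snhg18* libraries 1 to 3. Library 2 was the highest of its group in both, and the groups overlapped through si-*Snhg18* 2. Within same-numbered pairs *Il33* was lower in si-*Snhg18* cells in 3 of 3, with log2 differences of -2.04, -0.61 and -1.63. The log2 fold change was -1.13 (SE 0.64, edgeR adjusted p = 0.325) in the plain fit and -1.36 (SE 0.30, edgeR adjusted p = 0.0149) with the block. The size of the fall depended on single libraries. Without si-*Snhg18* 2 the log2 fold change was -2.25 (edgeR adjusted p = 0.0119), a larger fall. It lay between -1.33 and -0.77 without any other library.

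The genes of IL-1α and IL-1β were at or near 0. *Il1b* had 0 reads in all 6 libraries, which allows up to 0.115 to 0.166 CPM per library, and *Il1a* had 2 reads in si-NC 1 and 0 in the others. *Il18*, a cytokine activated by caspase-1, had between 3 and 21 reads and was not tested. *Il1rn*, the receptor antagonist that competes with IL-1 for IL1R1, was at 1.81, 2.78 and 1.14 CPM in si-NC and at 1.58, 2.46 and 1.59 CPM in si-*Snhg18* cells. The si-*Snhg18* values lay inside the range of the si-NC values, and the 95% interval of the log2 fold change ran from -0.95 to 0.91 (edgeR adjusted p = 0.977).

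*Il1rl1*, the IL-33 receptor chain, was by far the most abundant member. It was at 1102, 1083 and 1140 CPM in si-NC libraries 1 to 3 and at 479, 485 and 472 CPM in si-*Snhg18* libraries 1 to 3. The groups were far apart and each was tight, with means of 1109 ± 29 and 479 ± 6.39 CPM (SD, n = 3 each), so that 43.2% of the control level remained. The log2 fold change was -1.21 (SE 0.06), and the same-numbered pairs differed by -1.20, -1.16 and -1.27 on the log2 scale. Ordered by mean CPM, *Il1rl1* held place 86 of the 14531 tested genes in si-NC cells and place 281 in si-*Snhg18* cells. Ordered by CPM per kb of exon length, its places were 305 and 821. In these bulk samples, fewer cells with the transcript and less transcript per cell cannot be told apart.

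*Il1rap* (ENSMUSG00000022514, chromosome 16, 26581704 to 26730117), encoding the chain shared by the IL-33, IL-1 and IL-36 receptors, fell as well. It was at 73.7, 84.9 and 73.1 CPM in si-NC libraries 1 to 3 and at 34.0, 53.5 and 44.3 CPM in si-*Snhg18* libraries 1 to 3. Every si-*Snhg18* library was below every si-NC library. The log2 fold change was -0.81 (SE 0.17, edgeR adjusted p = 0.0404), and all 3 pairs were lower, by -1.12, -0.66 and -0.72. Without TMM factors the adjusted p was 0.0533 by the same test. With each library left out in turn, *Il1rap* stayed between -0.99 and -0.66, and it passed without si-*Snhg18* 2 (edgeR adjusted p = 0.00846) and in no other of these fits.

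*Il1r1* (ENSMUSG00000026072, chromosome 1, 40225080 to 40317257), the signalling receptor of IL-1α and IL-1β, was at 87.4, 90.9 and 102 CPM in si-NC and at 78.1, 71.9 and 68.0 CPM in si-*Snhg18* libraries. The groups did not overlap, but the distance between them was small next to that of *Il1rl1*. The log2 fold change of -0.36 (SE 0.09) had an edgeR adjusted p of 0.0631 in the plain fit and of 0.0206 with the block.

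Downstream of the receptors, *Irak1* moved the other way and *Myd88* did not pass the test. *Irak1* (ENSMUSG00000031392, chromosome X, 74013914 to 74023918), the kinase released from the receptor complex toward TRAF6, was at 92.9, 94.4 and 96.8 CPM in si-NC and rose to 111, 113 and 118 CPM in si-*Snhg18* libraries. All 3 si-*Snhg18* libraries were above all si-NC libraries, and the log2 fold change was 0.27 (SE 0.06, edgeR adjusted p = 0.0464). It passed in the fit without si-*Snhg18* 2 (adjusted p = 0.0328) and in none of the other fits that left out a library, and the adjusted p was 0.053 by limma-voom and 0.139 in edgeR's test without a filter on low counts. *Myd88*, the adaptor common to these receptors, was at 34.7, 30.9 and 32.9 CPM in si-NC and 36.2, 31.1 and 35.1 CPM in si-*Snhg18* libraries. Its 95% interval ran from -0.17 to 0.28 on the log2 scale (edgeR adjusted p = 0.762).

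**Figure D1:**
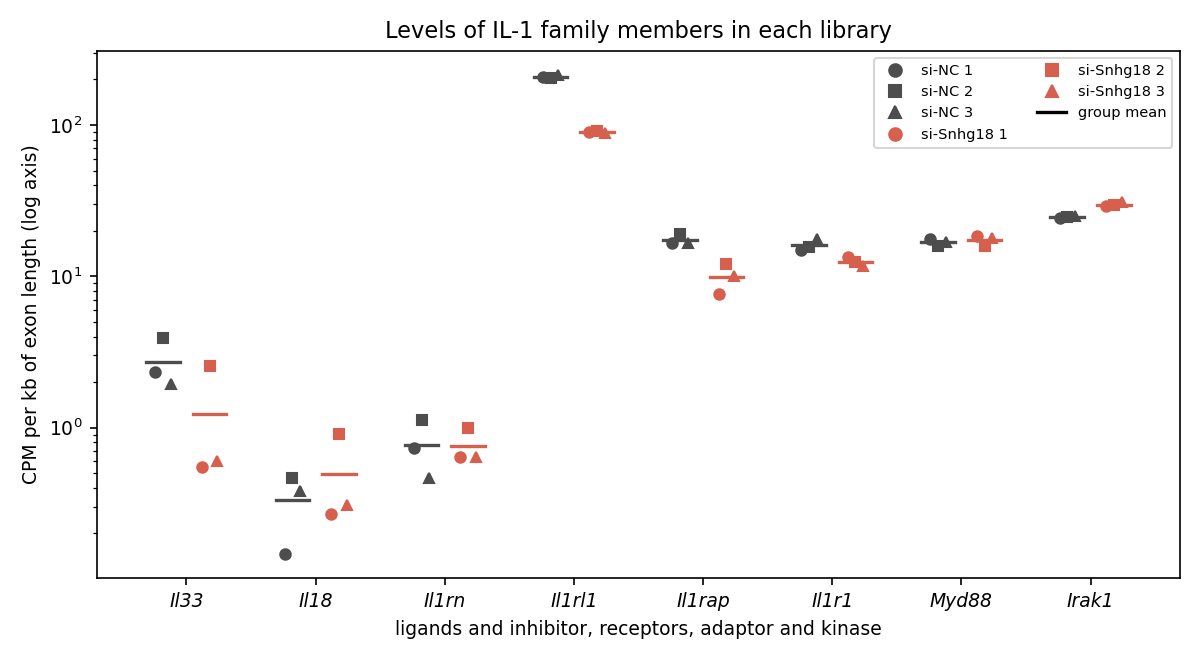
Level of each member with reads in both groups, in CPM per kb of exon length on a log axis, with 1 point per library (shape gives the library number) and a bar at the group mean. *Il1rl1* stands near 209 in si-NC and 90.3 in si-*Snhg18* cells, while *Myd88* overlaps between the groups.

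Of the 9 members other than *Il1rl1*, 6 had enough reads to be tested. In the plain fit 1 fell (*Il1rap*) and 1 rose (*Irak1*), against 7.36% of all tested genes in either direction. With the block 3 fell and 1 rose, against 27.2%. The CPM of the groups did not overlap for 3 of the 6, a state found for 30.9% of all tested genes.

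Levels of different genes were compared per kb of exon length. In si-NC cells *Il1rl1* was at 209 ± 5.47 CPM per kb, followed by *Irak1* at 24.7 ± 0.509, *Il1rap* at 17.4 ± 1.49, *Myd88* at 16.8 ± 0.958 and *Il1r1* at 16.1 ± 1.34 (SD, n = 3 each). *Il1rap* and *Myd88* overlapped in range, as did *Myd88* and *Il1r1*, while *Il33* at 2.73 ± 1.03 lay below them and *Il1rn* and *Il18* were lower still. In si-*Snhg18* cells *Il1rl1* remained first at 90.3 ± 1.2 CPM per kb, ahead of *Irak1* at 29.8 ± 0.982 and *Myd88* at 17.4 ± 1.36 (SD, n = 3 each). *Il1r1* at 12.5 ± 0.88 and *Il1rap* at 9.9 ± 2.21 came next with overlapping ranges (SD, n = 3 each).

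Ratios of these levels set *Il1rl1* against the shared chain *Il1rap* and against *Il1r1*, another specific chain. *Il1rl1* exceeded *Il1rap* by a factor of 12.5, 10.7 and 13.1 in si-NC libraries and of 11.8, 7.58 and 8.91 in si-*Snhg18* libraries. These ranges overlapped, and both genes were lower in si-*Snhg18* cells. The *Il1rl1* count pools the membrane and secreted forms and was divided by the length of the full-length transcript. The ratios are thus not ratios of membrane receptor chains. Against *Il1r1* the factor was 13.8, 13.1 and 12.2 in si-NC and 6.73, 7.4 and 7.63 in si-*Snhg18* libraries, without overlap, a difference that follows from the choice of *Il1rl1*.

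**Figure D2:**
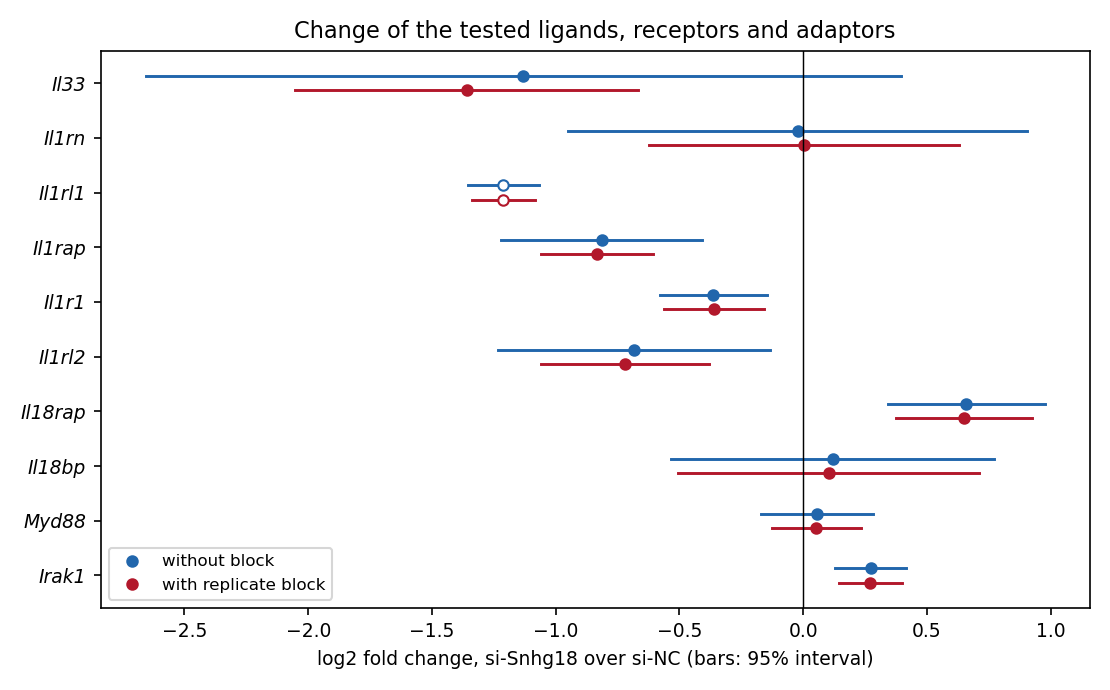
Log2 fold change of si-*Snhg18* over si-NC with its 95% interval, in the plain and the blocked fit, for tested members and for *Il1rl2*, *Il18rap* and *Il18bp*. The block narrows the interval of *Il33* most (plain -2.66 to 0.39), and the open symbols of *Il1rl1* mark that it was chosen for its change.

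The other receptors of the family split in direction. *Il18rap*, the signalling partner chain of the IL-18 receptor, was at 14.2, 14.1 and 13.6 CPM in si-NC and rose to 24.4, 18.4 and 23.5 CPM in si-*Snhg18* libraries. The groups did not overlap, and the log2 fold change was 0.66 (SE 0.13, edgeR adjusted p = 0.037). Its partner *Il18r1*, which binds IL-18, had at most 8 reads in any library. *Il1rl2*, the IL-36 receptor, was at 29.0, 31.5 and 25.8 CPM in si-NC and 13.2, 24.3 and 16.1 CPM in si-*Snhg18* libraries, where library 2 came close to the control range. Its log2 fold change was -0.68 (adjusted p = 0.131 in the plain fit and 0.0115 with the block, edgeR).

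Of the 13 further genes of the family on a list, 3 were tested, and the third was *Il18bp*, a secreted inhibitor of IL-18, at 1.8 ± 0.17 and 1.96 ± 0.536 CPM (SD, n = 3 each). Each of the other 10 had 8 reads or fewer per library, namely the decoy receptor *Il1r2*, *Il18r1*, the inhibitory receptor *Sigirr*, *Il1rapl1* and *Il1rapl2*, and the cytokine genes *Il36a*, *Il36b*, *Il36g*, *Il36rn* and *Il1f10*. Of these genes 1 of 3 passed in the plain fit and 2 of 3 with the block, against 7.36% and 27.2% of all tested genes.

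*Il1rl1* sits inside a cluster of receptor genes that share its strand, which allowed its neighbours to be compared. Of 19 annotated genes that start within 500 kb, 6 were tested. *Il1r1* starts 204 kb and *Il1rl2* 105 kb before *Il1rl1*, and both had lower means in si-*Snhg18* cells. *Il18r1*, which starts 36 kb after the start of *Il1rl1*, had almost no reads, and *Il18rap*, at 85.8 kb, was higher. Farther on, *Slc9a2*, a sodium-proton exchanger, had a log2 fold change of -0.67 (adjusted p = 0.195 in the plain fit and 0.0479 with the block, edgeR).

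*Mfsd9*, 361 kb away on the other strand, was at 16.8, 14.5 and 15.9 CPM in si-NC and fell to 10.2, 9.23 and 11.2 CPM in si-*Snhg18* libraries (log2 fold change -0.63, edgeR adjusted p = 0.0371). *Tmem182* had few reads and a log2 fold change of 0.32, with an interval from -0.99 to 1.63. In total 1 of the 6 neighbours rose and 1 fell in the plain fit, against 7.36% of all tested genes in either direction. With the block 1 rose and 4 fell, against 27.2%. The 13 that were not tested had at most 22 reads.

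**Figure D3:**
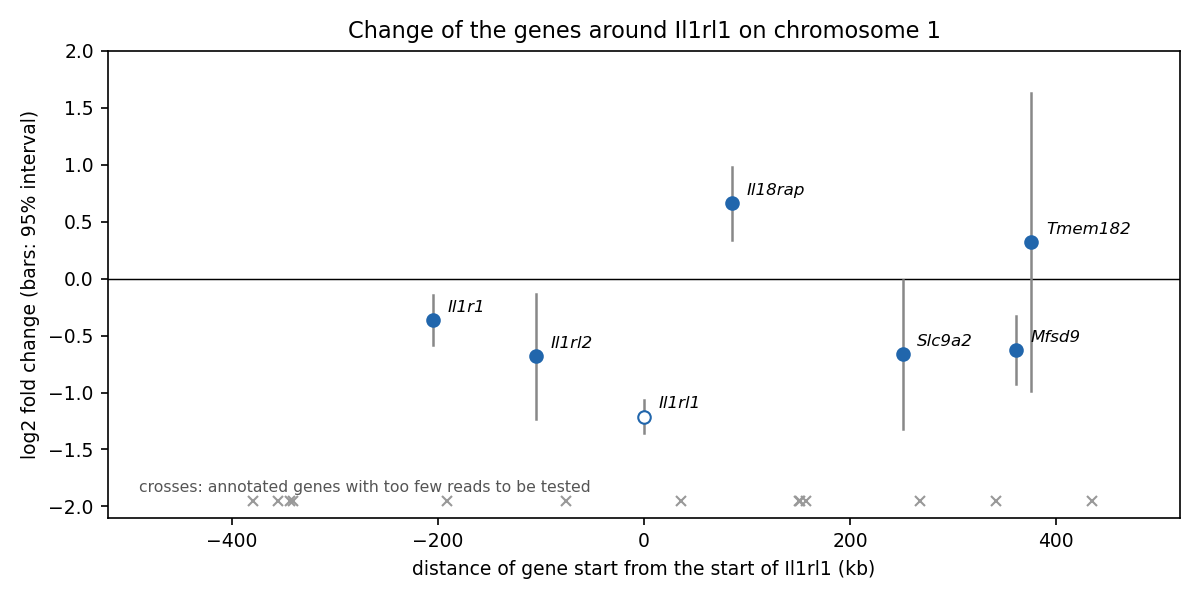
Log2 fold change with its 95% interval (plain fit) of tested genes against the distance of their start from that of *Il1rl1* in kb, with crosses for genes that had too few reads. Values on both sides of 0 lie within 105 kb of *Il1rl1*, *Il1rl2* at -0.68 and *Il18rap* at 0.66.

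Other signalling genes of the pathway came from hand-written lists. All 30 kinases, adaptors and NF-κB proteins listed below the receptors were tested. In the plain fit 1 of the 30 passed, *Tollip*, against 7.36% of all tested genes. *Tollip* encodes a protein that binds IL-1 receptor complexes and restrains IRAK1. It was at 103, 98.1 and 96.4 CPM in si-NC and rose to 138, 120 and 123 CPM in si-*Snhg18* libraries (log2 fold change 0.36, edgeR adjusted p = 0.0427). With the block 4 rose and 5 fell, a share near the 27.2% of all tested genes that passed, and the list median was 0.11 against 0.01 over all tested genes.

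Those that rose with the block were *Tollip*, the ubiquitin ligases *Traf6* (log2 fold change 0.44, adjusted p = 0.0121) and *Peli2* (0.92, adjusted p = 0.00105), and the kinase *Map2k3* (0.40, adjusted p = 0.00723) in edgeR. *Peli2* was at 27.4, 14.5 and 25.8 CPM in si-NC and 58.4, 25.1 and 46.8 CPM in si-*Snhg18* libraries, low in both libraries numbered 2. Those that fell with the block were *Irak4* (-0.45), the kinase that phosphorylates IRAK1, *Tab3* (-0.45), *Chuk* (-0.33), which encodes IKKα, *Relb* (-0.48) and *Mapk14* (-0.20), the p38α kinase, with adjusted p-values between 0.00879 and 0.0425 by the same test. In the plain fit the adjusted p-values of these 8 genes other than *Tollip* lay between 0.058 and 0.25.

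Most Toll-like receptors signal through the adaptor MYD88 too, and 11 of the 17 genes listed for them were tested. *Tirap*, which bridges Toll-like receptors to MYD88, was at 28.2, 31.3 and 27.8 CPM in si-NC and fell to 14.6, 19.3 and 19.9 CPM in si-*Snhg18* libraries. The groups did not overlap, and the log2 fold change was -0.70 (SE 0.14, edgeR adjusted p = 0.0381). It was the 1 gene of this list to pass in the plain fit, and its adjusted p was 0.0511 without TMM factors. With the block *Tlr4* (0.27), *Tlr7* (0.81) and *Cd14* (0.57) also passed, all higher (adjusted p = 0.0324, 0.029 and 0.00369 by the same test). The list thus had 1 of 11 in the plain fit and 4 of 11 with the block, against 7.36% and 27.2% of all tested genes.

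Genes that produce and process active IL-1β and IL-18 were few. Of 7 inflammasome genes 4 were tested, too few to compare with the share of all tested genes. Of these, 0 passed in the plain fit and with the block, against 7.36% and 27.2% of all tested genes. By DESeq2 and limma-voom 0 passed as well, against 2115 and 1036 of all 14531. An unadjusted p under 0.05 was found for 0 in the plain fit and 1 with the block, against 3613 and 5811 of all 14531. *Casp1*, the protease that cleaves both cytokines, had means of 2.87 ± 0.546 CPM in si-NC and 1.87 ± 0.814 CPM after knockdown (SD, n = 3 each), while *Nlrp3* and *Aim2* had at most 14 reads. *Gsdmd*, which forms the pore that releases IL-1β, was at 27.8 ± 4.27 and 26.3 ± 4.72 CPM, and *Casp4* at 26.2 ± 6.14 and 21.6 ± 5.85 CPM (SD, n = 3 each). *Pycard* varied from 0.4 to 3.42 CPM within the si-*Snhg18* group.

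**Figure D4:**
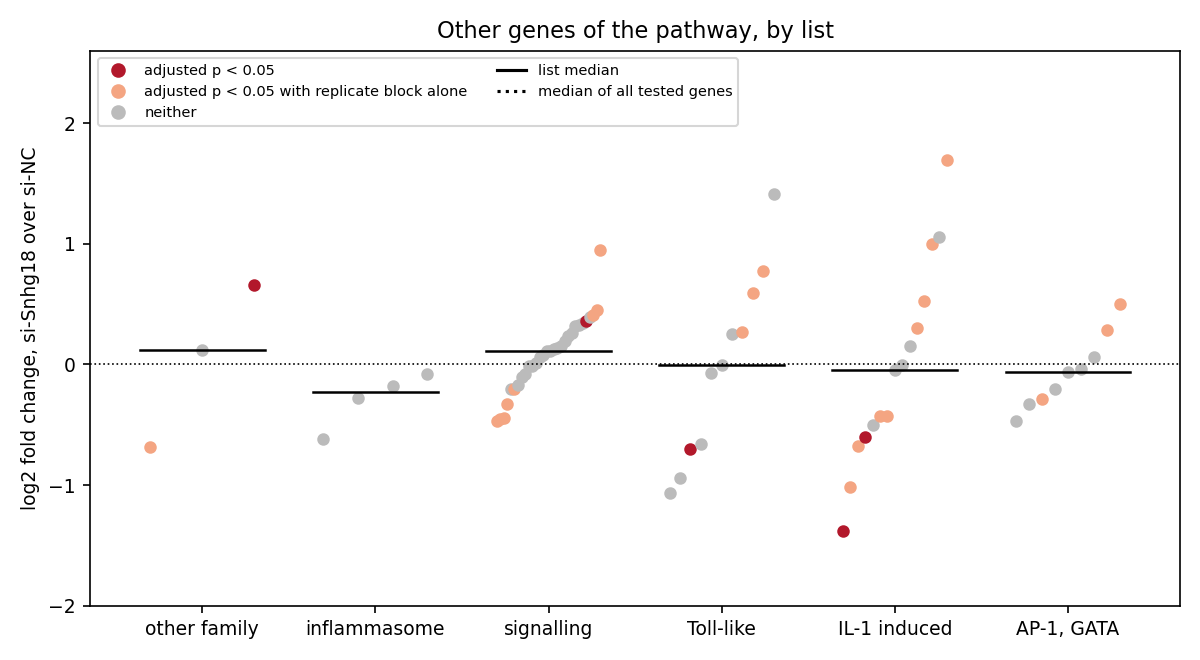
Log2 fold change (plain fit) of the tested genes of 6 pathway lists, 1 point per gene, coloured by whether it passed in the plain fit, with the block alone or in neither, with a line at the list median and a dotted line at the median of all tested genes. The medians of the 6 lists plotted lie between -0.23 (inflammasome) and 0.12 (other family).

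Of 20 listed genes that IL-1 induces through NF-κB in stromal cells, 15 were tested. In the plain fit the log2 fold change was above 0 for 6 of them and below 0 for 9. In this fit 2 passed as lower and 0 as higher, against 3.71% lower and 3.65% higher over all tested genes. Higher genes of the list passed only in the blocked fits and in the fit without si-*Snhg18* 2. *Icam1*, a leukocyte adhesion molecule, was at 41.1, 41.2 and 36.6 CPM in si-NC and fell to 28.1, 24.1 and 26.0 CPM in si-*Snhg18* libraries (log2 fold change -0.60, edgeR adjusted p = 0.0208). *Mmp13*, a collagenase, was at 273, 187 and 310 CPM in si-NC and fell to 130, 64.0 and 101 CPM (log2 fold change -1.38, edgeR adjusted p = 0.0421). Neither gene overlapped between the groups.

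With the block 4 of the induced genes rose and 6 fell, against 13.6% of tested genes in each direction. The lower ones were *Icam1*, *Mmp13*, *Mmp3* (-0.70), *Vcam1* (-1.12), *Ptgs2* (-0.52) and *Birc3* (-0.43). *Mmp3*, a stromelysin, was at 2027, 1938 and 2218 CPM in si-NC and 1496, 993 and 1375 CPM in si-*Snhg18* libraries, an adjusted p of 0.0525 in the plain fit of edgeR. The higher ones were the chemokines *Ccl2* (0.82), *Ccl7* (0.50) and *Cxcl1* (1.67) and the mitochondrial superoxide dismutase *Sod2* (0.30). *Ccl2* was at 219, 108 and 221 CPM in si-NC and 542, 121 and 436 CPM in si-*Snhg18* libraries, higher in 3 of 3 pairs.

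Several of these genes differed more between library numbers than between the groups. *Cxcl5* was at 39.7, 3.27 and 42.8 CPM in si-NC libraries 1 to 3 and 53.2, 2.77 and 29.6 CPM in si-*Snhg18* libraries 1 to 3, so that both libraries numbered 2 were low. *Il6* ran the other way, with 9.84 and 9.69 CPM in the libraries numbered 2 and between 0.317 and 3.84 CPM in the others. *Cxcl1* had only 2 reads in si-NC 2.

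**Figure D5:**
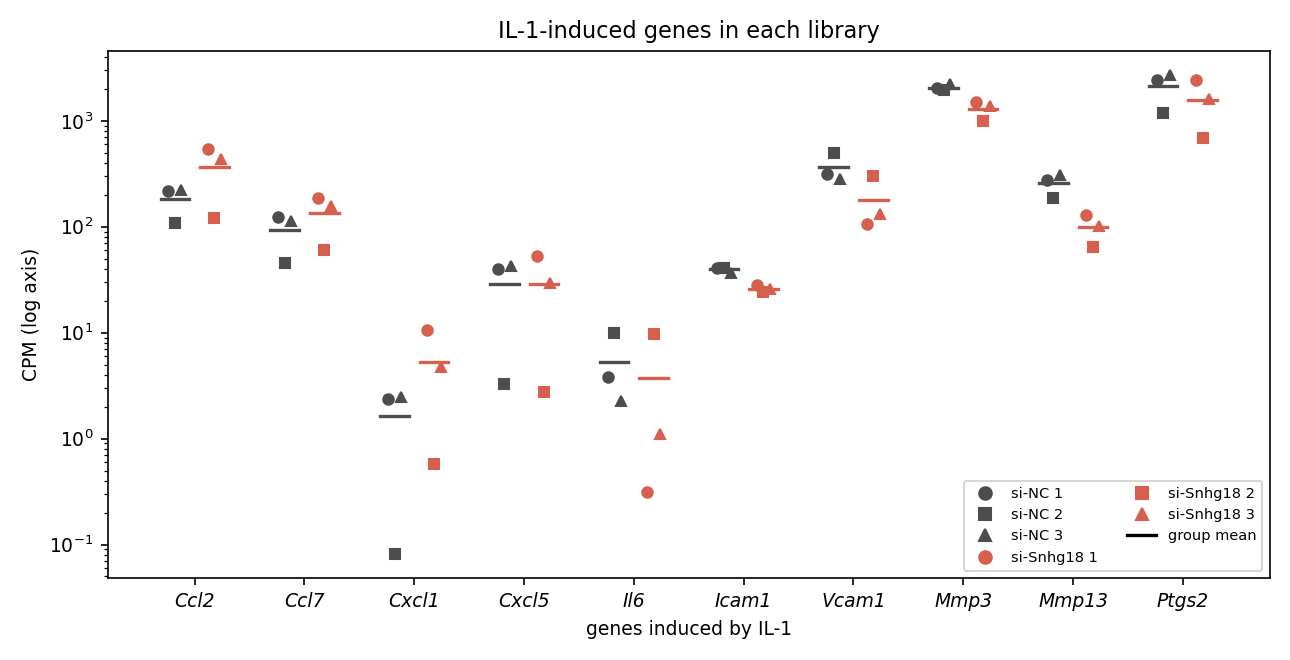
CPM of 10 IL-1-induced genes in each library on a log axis, with the shape of a point giving the library number and a bar at the group mean. *Icam1*, *Mmp3* and *Mmp13* separate the groups, while *Cxcl5*, *Cxcl1*, *Il6* and *Ptgs2* set the libraries numbered 2 apart within both.

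Among 11 genes of AP-1 and GATA factors and *Spi1*, which encodes PU.1, 9 were tested. In edgeR, DESeq2 and limma-voom 0 passed, with 2 at an unadjusted p under 0.05 in each. Of all tested genes, 7.36% passed in the plain edgeR fit, and 2115 of 14531 passed by DESeq2 and 1036 by limma-voom. In the plain edgeR fit 3613 of them had an unadjusted p under 0.05. *Fosl2*, the most abundant, was at 355 ± 27.9 and 347 ± 21.9 CPM (SD, n = 3 each). With the block *Gata2* (0.48, adjusted p = 0.0141) and *Jund* (0.28, adjusted p = 0.0265) were higher and *Jun* (-0.30, adjusted p = 0.0281) was lower by edgeR's test, and these 3 of 9 stand against 27.2% of all tested genes. *Gata2* was at 34.1, 28.1 and 36.1 CPM in si-NC and 57.8, 35.9 and 45.1 CPM in si-*Snhg18* libraries, with overlap at si-*Snhg18* 2. *Gata1* and *Spi1* had 0 reads.

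Listed mast cell markers were at or near 0, while 2 of 8 leukocyte markers had enough reads to be tested. Of 7 mast cell markers, *Cpa3*, *Mcpt4* and *Fcer1a* had 0 reads in every library, and the summed level of the list was 0.0817 to 0.212 CPM in si-NC and 0.119 to 0.231 CPM in si-*Snhg18* libraries. Of 8 leukocyte markers, *Cd3e* and *Adgre1* had 0 reads, and the sum, mostly *Csf1r* and *Cd68*, was 7.31 to 10.7 and 6.08 to 12.2 CPM. The 6 endothelial markers summed to 12.4 to 14.0 and 13.3 to 15.4 CPM, none of them at 0 in all libraries, and *Cdh5* led them. *Tek* was at 0.907 ± 0.365 CPM in si-NC and 0.32 ± 0.0884 CPM in the other group (SD, n = 3 each), without overlap, and was lower with the block (edgeR adjusted p = 0.0341) but not in the plain fit (0.1). The 5 epithelial markers, nearly all from *Krt18*, summed to 7.25 to 22.7 CPM in si-NC and 1.19 to 7.42 CPM in si-*Snhg18* libraries. *Krt18* was lower with the block (edgeR adjusted p = 0.00216) but not in the plain fit (0.226), and its groups overlapped. Sums over hand-written lists do not measure the share of a cell type, which was not tested.

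In the plain fit 1 of the 6 smooth muscle markers passed, *Tagln*, which fell, against 3.71% of all tested genes that passed as lower. With library totals 0 of the 6 passed, while 492 of all 14531 tested genes passed as lower. With each library left out in turn 0 passed except without si-*Snhg18* 2, where 5 fell. In that fit 1737 of all 14832 tested genes passed as lower. With the block *Tagln*, *Myh11*, *Cnn1* and *Des* fell, as did *Pdgfra* and *Col1a1* among the 5 fibroblast markers, against 13.6% of all tested genes. The part of cell makeup in the change of the receptors was not tested.

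The 5 genes whose profile over the 6 libraries was most like that of *Il1rl1* were *Pgpep1*, *Snhg18*, *Rer1*, *Vps26a* and *Cd53*. Likeness was the root mean square difference between log2 CPM values centred on each gene's mean, over 14530 other tested genes, and it was 0.0626, 0.0789, 0.0872, 0.0933 and 0.101 on the log2 scale in that order. *Pgpep1*, a peptidase that removes pyroglutamate, went from 58.9 ± 0.712 to 26.8 ± 1.45 CPM (SD, n = 3 each). *Cd53*, a tetraspanin gene on none of the marker lists above, went from 109 ± 12.2 to 50.8 ± 0.359 CPM (SD, n = 3 each). The libraries share the group difference that chose *Il1rl1*, so this list describes genes with a change of like size and little spread.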

How the data were processed

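RNA from si-NC and si-*Snhg18* mPASMCs (3 libraries each) was sequenced after TruSeq Stranded mRNA preparation. The table deposited by the authors holds raw counts, each with the gene's exon length and GRCm38.p6 position. The submitters' processing notes name HISAT2 and mm10. The counting program, strand setting and read filters are not given in the sources used here, so reads shared by overlapping genes may be divided in ways the counts do not show. Groups and replicate numbers came from the sample titles. The columns of counts all belonged to these libraries.

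Genes were kept by filterByExpr (minimum count 10), normalized by TMM and compared with glmQLFit and glmQLFTest in edgeR 4.0.16 (R 4.3.3), with adjustment over the 14531 genes kept. CPM are TMM-normalized, and profiles used log2 CPM with a prior count of 2. Totals of 18097718 to 25988746 reads set the precision, and the floor of 3 reads covers counting error only. Replicate numbers pair the libraries as a label. Deviations from the group means correlated between same-numbered libraries with r = 0.41, 0.742 and 0.359, although si-*Snhg18* 1 correlated more with si-NC 3 (0.497). Alternatives were the replicate block, RLE factors, library totals, DESeq2 1.42.0 with and without the block, limma-voom (limma 3.58.1), other filters on low counts and leaving out each library. The fits were tested on simulated data.

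The members and gene lists were chosen with earlier results of these data known. Genes were named by a rule: the members, the family list, genes of the pathway, induced and AP-1 and GATA lists that passed in either fit or were most abundant, genes starting within 500 kb of *Il1rl1*, the 5 most like profiles, and markers described by list. *Pycard*, *Nlrp3*, *Aim2*, *Cxcl5*, *Il6*, *Gata1* and *Spi1* were named after their values were seen.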

Additional observations from a re-analysis of the deposited data

How the results depend on the processing

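*Il1rl1* kept its log2 fold change between -1.22 and -1.20 in 8 alternative fits and between -1.23 and -1.19 with each library left out. Counts of genes that passed depended on the pairing and on single libraries. With the replicate block 3954 genes passed over all genes, 4 of the 6 tested members, 15 of the other 48 pathway genes, 10 of the induced genes and 3 of the AP-1 and GATA genes. DESeq2 gave 2115 over all genes, 9 pathway and 4 induced genes, and with the block 3156, 4 members, 12 pathway, 8 induced and 3 AP-1 and GATA genes, against 1069, 2, 3, 2 and 0 in the plain edgeR fit. Of the members, 1 passed with library totals, 1 by limma-voom and 1 without a filter on low counts. With each library left out, the counts ranged from 0 to 3282 over all genes, 0 to 4 members, 0 to 14 pathway, 0 to 8 induced and 0 to 2 AP-1 and GATA genes, and the highest were without si-*Snhg18* 2. No gene passed in edgeR without si-NC 1, si-NC 3 or si-*Snhg18* 3, where 2512, 2731 and 2464 genes had an unadjusted p under 0.05. *Il18rap*, *Tollip*, *Tirap*, *Mmp13* and *Mfsd9* passed in 1 of the 6 such fits each, without si-*Snhg18* 2, and *Icam1* in 2. *Tollip* had an adjusted p of 0.0772 without a filter. Among the members, the pathway, induced and AP-1 and GATA genes and the neighbours, no gene that passed changed sign in any fit. Signs of the marker genes were not compared across all fits. No gene named as passing in the plain fit lost its call with the block, and beyond the gains given in the report it changed no other call among the members, listed genes and neighbours. Why the counts depend on single libraries was not tested. Genes under about 10 reads per library could not be compared at this depth.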
